A study of Mus musculus with 6 samples.

Results

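The genes described here are the 10 mouse genes *Opa1*, *Mfn1*, *Mfn2*, *Dnm1l*, *Fis1*, *Mff*, *Pink1*, *Bnip3*, *Bnip3l* and *Oma1*, which encode proteins of mitochondrial fusion, fission and mitophagy. They were chosen by symbol, with earlier results of these data known. Each was found in the deposited table once, as 10 of its 31169 genes. All 10 passed the filter on low counts and were among the 17707 genes tested.

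Mitochondria join and divide continually, and damaged ones are removed. Mitofusins on the outer membrane and OPA1 on the inner membrane fuse mitochondria, the dynamin DRP1 constricts and divides them after adaptors recruit it to their surface, and the protease OMA1 cleaves OPA1 when the inner membrane loses its potential. Mitophagy, the delivery of mitochondria to lysosomes by autophagosomes, starts with the kinase PINK1 on mitochondria that have lost their membrane potential or with receptors such as BNIP3 and BNIP3L, which are induced by low oxygen. In the optic nerve these processes are known above all from dominant optic atrophy, a loss of retinal ganglion cells (RGCs) that follows mutation of *OPA1*.

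RNA sequencing of whole retina was used to ask which transcripts differ after microbead injection, a mouse model of glaucoma in which polystyrene beads in the anterior chamber hinder the outflow of aqueous humor and raise intraocular pressure. The mice were wild-type C57BL/6, were injected at 1 month of age with saline or with beads 15 μm in diameter, and were 2 months old when the retina was taken 4 weeks later. There were 3 saline and 3 microbead libraries, and no uninjected retina was analysed here. The labels do not say whether the libraries of a group came from separate animals, so the p-values measure the spread between these samples, which may be technical in part. Library totals were 36085737 to 46481382 counts in the saline group and 13574949 to 19834366 in the microbead group, and genes of the mitochondrial genome took 3.19 to 3.57% of the counts in saline libraries and 8.90 to 10.6% in microbead libraries. The titles of the 6 samples run in a common series, but the library names in their descriptions have a different stem in each group. If these stems mark separate preparation or sequencing, which the labels do not say, its effect and that of the injection cannot be told apart.

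None of the 10 genes passed the test between microbead- and saline-injected retina. Of all tested genes, 12.8% passed it (edgeR's quasi-likelihood test, Benjamini-Hochberg adjusted p-value under 0.05), 6.31% with a lower and 6.46% with a higher level in microbead retina. At an unadjusted p-value under 0.05 there were 4 of the 10 genes, all with lower levels in microbead retina (*Opa1*, *Mfn2*, *Bnip3l* and *Pink1*), beside 31.4% of all tested genes, or 16.2% counting those with lower levels alone. For the same 4 genes every microbead library was below every saline library, which held for 18.9% of all tested genes, and for 37.8% when either direction was counted. The estimated change was negative for 9 of the 10 genes, and the share of negative estimates over all tested genes was not counted. The 10 genes had a median log2 fold change of -0.40, beside -0.03 across all tested genes. Across the 9635 tested genes within the same range of mean CPM the median was -0.08, with 15.4% called, 7.98% lower. On the same counts DESeq2 called 3 of the 10 genes lower (*Opa1*, *Mfn2* and *Bnip3l*), but it also called more of all genes, 20.2% in either direction and 9.60% lower. limma-voom called 0 of the 10, with 12.5% of all genes called and 5.86% lower. The edgeR test with an offset for GC content and length called 3 of the 10 (*Mfn2*, *Bnip3l* and *Pink1*), beside 15.6% of all genes, 7.73% lower. Without the filter on low counts it called *Opa1* and *Mfn2* (11.9% of all genes, 7.09% lower), and with a minimum of 10 counts in each library *Opa1* alone (15.0% and 6.72%).

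**Figure D1:**
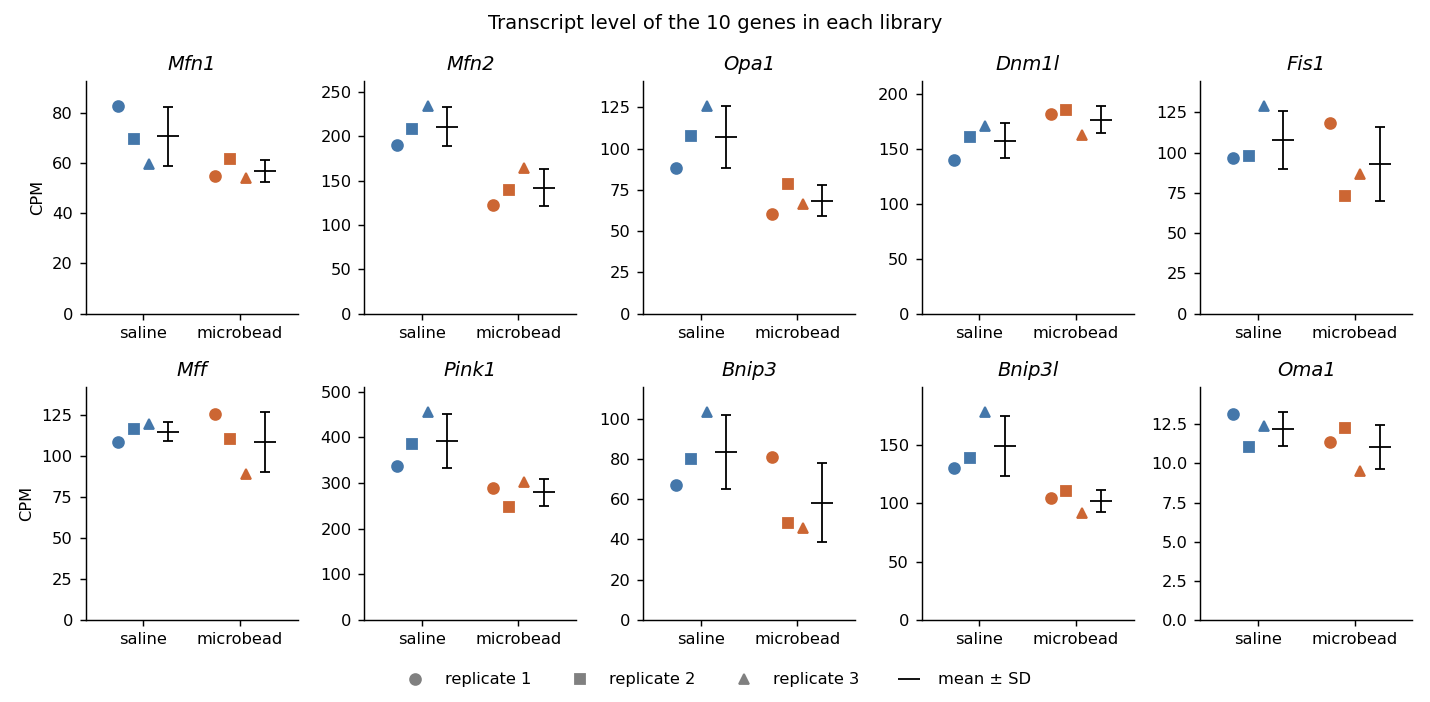
Transcript level of each of the 10 genes (vertical axis, CPM, counts scaled to 1000000 per library, on a linear scale from 0) in 3 saline (blue) and 3 microbead (orange) libraries, with symbols for the replicate numbers and bars for the mean ± SD. The groups are separate for *Mfn2*, *Opa1*, *Pink1* and *Bnip3l*, and they overlap for the other 6 genes.

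Of the fusion genes, *Opa1* and *Mfn2* had lower levels in every microbead library, and *Mfn1* did not separate the groups. *Opa1* (ENSMUSG00000038084.16; GRCm38 chromosome 16, 29579334 to 29654884, plus strand) encodes the inner membrane GTPase that fuses inner membranes and holds cristae together. Its level was 88.1, 107.7 and 125.5 counts per 1000000 of the scaled library size (CPM) in the saline libraries and 60.6, 78.6 and 66.3 CPM in the microbead libraries. The highest microbead library was thus below the lowest saline library. Mean levels (± SD, n = 3 libraries) were 107.1 ± 18.7 CPM in saline and 68.5 ± 9.21 CPM in microbead retina. The log2 fold change of *Opa1* was -0.65 (standard error, SE, 0.19; 95% interval -1.07 to -0.22; edgeR adjusted p = 0.0542), a percent change of -36.1%, and this was the gene closest to the threshold among the 10. Its adjusted p-value lay between 0.0185 and 0.0894 under the alternatives that kept all libraries, and it was under 0.05 with no filter on low counts (0.0185), with a minimum of 10 counts in each library (0.0479) and in DESeq2 (0.0236). Of the fits with 1 library left out, only that without saline replicate 1 brought it under the threshold (log2 fold change -0.77, edgeR adjusted p = 0.0328), where 15.1% of all genes passed, 7.30% with lower levels.

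*Mfn2* (ENSMUSG00000029020.13; chromosome 4, 147873599 to 147904704, minus strand) encodes the mitofusin that also tethers mitochondria to the endoplasmic reticulum. The saline libraries had 189.7, 208.6 and 234.2 CPM of *Mfn2* and the microbead libraries 122.5, 139.7 and 164.5 CPM. Again no microbead library reached the lowest saline library. With 210.8 ± 22.3 CPM on average in saline and 142.2 ± 21.1 CPM in microbead retina, the log2 fold change was -0.57 (SE 0.18, 95% interval -0.97 to -0.17, edgeR adjusted p = 0.0654), or -32.6%. The adjusted p-value of *Mfn2* was under 0.05 without the filter (0.0425), in DESeq2 (0.0335) and with an offset for GC content and length (0.0463), and was 0.0335 to 0.0880 over all alternatives with every library.

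*Mfn1* (ENSMUSG00000027668.13; chromosome 3, 32529465 to 32579239, plus strand), the other mitofusin, was measured at 82.7, 69.5 and 59.5 CPM in saline retina and at 54.9, 61.6 and 53.9 CPM in microbead retina. The groups overlapped, since microbead replicate 2 was above saline replicate 3. Among the saline libraries its order was the opposite of that of *Mfn2* and *Opa1*, with saline replicate 1 highest and saline replicate 3 lowest. The log2 fold change of *Mfn1* was -0.31 (SE 0.18, 95% interval -0.71 to 0.08, edgeR adjusted p = 0.259).

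The upstream sequence of *Opa1* is shown because it is the gene with the largest estimated change among the 10 and the only one whose promoter window held the core motif of nuclear respiratory factor NRF1. These are the 250 bases before its RefSeq start (chr16:29579084-29579333, plus strand, GRCm38.p6), 5′ to 3′, with the motif matches in capitals.
*Opa1* promoter: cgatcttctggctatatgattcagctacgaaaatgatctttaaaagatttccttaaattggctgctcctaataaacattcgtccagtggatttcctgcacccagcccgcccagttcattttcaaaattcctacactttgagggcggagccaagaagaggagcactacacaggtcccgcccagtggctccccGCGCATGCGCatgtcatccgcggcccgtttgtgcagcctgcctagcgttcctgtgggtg
The capitals hold GCATGCGC on each strand, as overlapping matches that span bases 59 to 50 before the start. Among RefSeq promoter windows of the same length, available for 11960 tested genes and 9 of the 10 described here (not *Bnip3l*), 4.1% held this motif on either strand. A match of letters is a description of the sequence, and no factor's binding was measured.

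Of the fission genes, none separated the groups, and the changes of the 3 genes had a median log2 fold change of -0.08. *Dnm1l* (ENSMUSG00000022789.14; chromosome 16, 16312230 to 16358959, minus strand) encodes DRP1, the dynamin that divides mitochondria. It had 139.8, 160.7 and 171.2 CPM in saline retina and 181.6, 185.7 and 162.4 CPM in microbead retina. Microbead replicates 1 and 2 were above every saline library, and microbead replicate 3 was not. The log2 fold change of *Dnm1l* was 0.17 (SE 0.16, 95% interval -0.20 to 0.53, edgeR adjusted p = 0.520), the only positive estimate among the 10 genes, and it was positive under every alternative run, from 0.09 to 0.23.

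*Fis1* (ENSMUSG00000019054.13; chromosome 5, 136953275 to 136966234, plus strand) and *Mff* (ENSMUSG00000026150.14; chromosome 1, 82724890 to 82752394, plus strand) encode outer membrane proteins, and MFF is the main receptor for DRP1 in mammals. *Fis1* was at 96.5, 98.1 and 128.9 CPM in saline libraries and at 118.1, 73.2 and 86.7 CPM in microbead libraries. The spread of *Fis1* in the microbead group came largely from microbead replicate 1, which lay above 2 of the 3 saline libraries. Its log2 fold change was -0.22 (SE 0.22, 95% interval -0.70 to 0.27, edgeR adjusted p = 0.527). *Mff* was at 108.4, 116.4 and 119.7 CPM in saline libraries and at 125.6, 110.4 and 89.0 CPM in microbead libraries. The saline libraries of *Mff* were the closest to each other of any gene described here, with a coefficient of variation of 5.04%, and the microbead libraries spread to either side of them. Its log2 fold change was -0.08 (SE 0.18, 95% interval -0.48 to 0.31, edgeR adjusted p = 0.784), with an interval in percent from -28.3 to 24.2%. The sign of the *Mff* estimate changed to 0.03 without microbead replicate 3 and under the offset for GC content and length.

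Of the mitophagy genes, *Pink1* and *Bnip3l* had lower levels in every microbead library, while *Bnip3* overlapped. *Pink1* (ENSMUSG00000028756.12; chromosome 4, 138313409 to 138326307, minus strand) encodes the kinase that marks depolarized mitochondria for removal. The saline libraries had 337.5, 384.6 and 455.1 CPM of *Pink1* and the microbead libraries 288.8, 246.7 and 301.5 CPM. All microbead libraries were below the lowest saline library, and saline replicate 3 stood highest. With 392.4 ± 59.2 CPM on average in saline and 279.0 ± 28.7 CPM in microbead retina, the log2 fold change was -0.49 (SE 0.18, 95% interval -0.90 to -0.08, edgeR adjusted p = 0.0993), or -28.9%. With the offset for GC content and length the adjusted p-value of *Pink1* was 0.0468, and with the other alternatives that kept all libraries it was over 0.05 and at most 0.126.

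*Bnip3l* (ENSMUSG00000022051.15; chromosome 14, 66985239 to 67008877, minus strand) encodes the receptor also called NIX, which binds LC3 proteins on the autophagosome membrane. Its level was 130.4, 139.2 and 178.5 CPM in the saline libraries and 105.0, 110.5 and 92.1 CPM in the microbead libraries. The microbead libraries lay close together, with a coefficient of variation of 9.20%, all below the saline group. The log2 fold change of *Bnip3l* was -0.54 (SE 0.18, 95% interval -0.95 to -0.14, edgeR adjusted p = 0.0758), or -31.4%. In DESeq2 (0.0479) and with the offset for GC content and length (0.0496) its adjusted p-value was just under the threshold.

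*Bnip3* (ENSMUSG00000078566.8; chromosome 7, 138890836 to 138909519, minus strand), a paralog of *Bnip3l*, had 67.0, 80.1 and 103.3 CPM in saline retina and 80.9, 48.4 and 45.6 CPM in microbead retina. Microbead replicate 1 lay within the saline range, and the other microbead libraries were below it. *Bnip3* had the largest spread of the 10 genes in either group, with a coefficient of variation of 22.1% in saline and 33.6% in microbead libraries. Its log2 fold change was -0.52 (SE 0.26, 95% interval -1.09 to 0.06, edgeR adjusted p = 0.202), and it ranged from -0.83 when microbead replicate 1 was left out (adjusted p = 0.0699) to -0.34 when saline replicate 3 was (adjusted p = 0.436). The estimated change of *Bnip3* was therefore of the size of that of *Bnip3l*, with a wider interval that includes 0.

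The reads of these receptors are less certain than those of the other genes. In the annotated transcripts, 13.8% of the 100-base stretches of *Bnip3* and 14% of those of *Bnip3l* also occur in another locus, compared to 0.43% for *Dnm1l* and 0% for the other 7 genes. Among the copies in the table, *Gm16439* had 103 to 156 counts in saline and 2 to 7 counts in microbead libraries (log2 fold change -3.41, edgeR adjusted p = 0.0141), and *Gm14506*, which shares shorter stretches with *Bnip3*, had 187 to 310 and 32 to 46 counts (-1.38, adjusted p = 0.0344). *Bnip3l-ps* had 40 to 53 counts in saline and 4 to 8 in microbead libraries (-1.70, adjusted p = 0.0739). None of the copies in the table exceeded 8.03% of the count of its parent gene in any library. *Gm6532* and *AC160336.1*, which also share 100-base stretches with *Bnip3*, had no row under these names. The counts of copies do not bound the reads with several positions, whose handling is not given in the sources used here. In addition, exons of *Gm45507* on the opposite strand, which had no row under this name, overlap 22.3% of the exonic bases of *Bnip3*. Other genes overlap smaller shares of *Pink1* (6.7%, same strand), *Dnm1l* (4.67%, opposite strand) and *Mff* (2%, opposite strand). Whether counting used the strand is not given in the sources used here.

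The upstream sequence of *Bnip3* is shown because this gene is a known target of the hypoxia-inducible factors and its window was the only one of the 9 to hold both forms of their core motif, ACGTG and GCGTG. These are the 250 bases before the RefSeq start (chr7:138909507-138909756, minus strand, GRCm38.p6), read 5′ to 3′ along the gene, with matches on either strand in capitals.
*Bnip3* promoter: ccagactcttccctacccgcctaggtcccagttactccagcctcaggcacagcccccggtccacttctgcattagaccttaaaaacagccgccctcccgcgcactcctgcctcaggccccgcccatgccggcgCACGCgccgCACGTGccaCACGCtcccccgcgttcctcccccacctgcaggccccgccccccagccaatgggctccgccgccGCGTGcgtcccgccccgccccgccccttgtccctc
ACGTG occurs on each strand of the *Bnip3* window, in overlapping matches from 108 to 103 bases before the start, and GCGTG occurs at 3 places. Of the 11960 windows, 20.8% held ACGTG and 43.4% held GCGTG, the latter also in *Mfn2* and *Pink1*. Neither AAGGTCA, a recognition site of estrogen-related receptors (2.91% of windows), nor TCACGTGA, an E-box known from lysosomal and autophagy genes (1.38%), was found in the windows of the 9 genes.

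*Oma1* (ENSMUSG00000035069.3; chromosome 4, 103313812 to 103371868, plus strand), the protease that cleaves OPA1, was the least abundant of the 10 genes. It had 13.2, 11.03 and 12.4 CPM in saline libraries and 11.4, 12.3 and 9.49 CPM in microbead libraries. The groups overlapped, and the log2 fold change of *Oma1* was -0.14 (SE 0.21, 95% interval -0.62 to 0.34, edgeR adjusted p = 0.688). Its smallest count was 146, which carries a counting error of 8.28%, whereas the next smallest among the 10 genes, 670 for *Bnip3*, carries 3.86%. The coefficients of variation of *Oma1* were 8.88% in saline and 12.9% in microbead libraries. They include counting error, and its part in them was not separated from other spread between libraries.

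**Figure D2:**
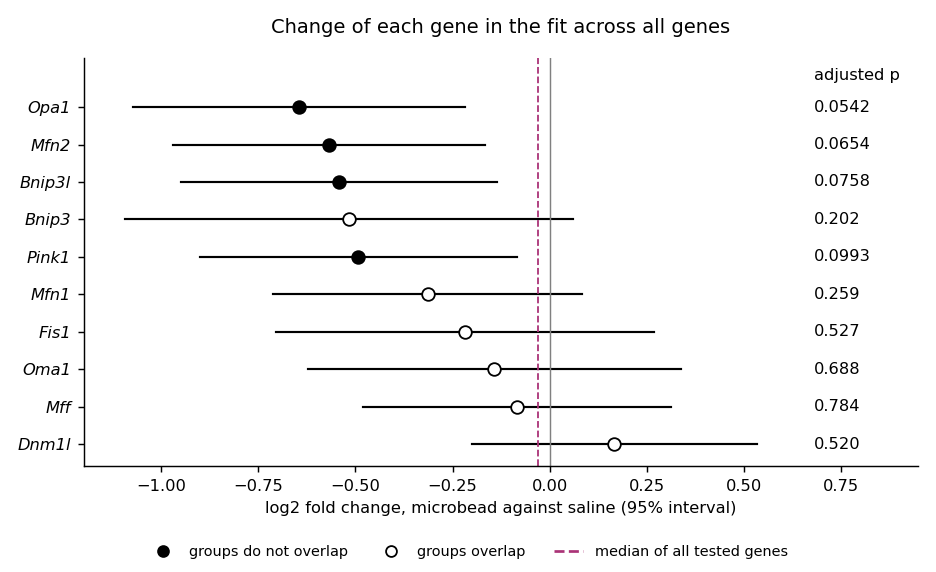
Log2 fold change of each gene, microbead against saline (horizontal axis), with its 95% interval from edgeR and its adjusted p-value, where filled points mark genes whose groups do not overlap and the dashed line marks the median of all tested genes at -0.03. The intervals of *Opa1*, *Mfn2*, *Bnip3l* and *Pink1* lie below 0, those of the other 6 genes include 0, and no adjusted p-value is under 0.05.

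**Figure D3:**
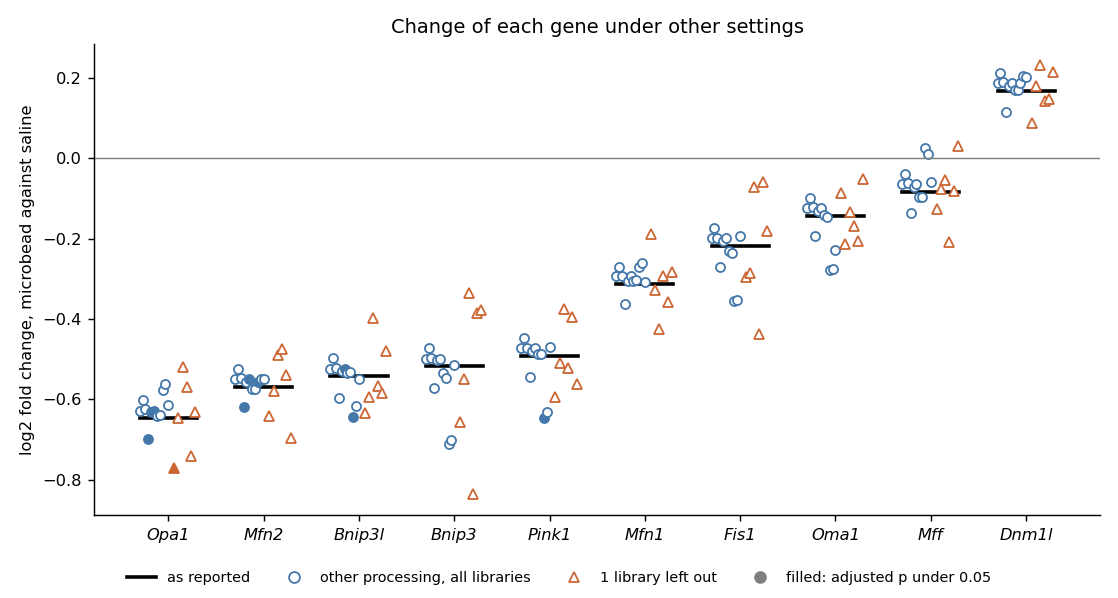
Log2 fold change of each gene (vertical axis) as reported (black bar), under the 11 other ways of processing with all libraries (circles) and with each of the 6 libraries left out in turn (triangles), where filled symbols have an adjusted p-value under 0.05. The estimates of 8 genes stay below 0 and that of *Dnm1l* above 0 in every fit shown, that of *Mff* crosses 0, and the filled symbols belong to *Opa1*, *Mfn2*, *Bnip3l* and *Pink1*.

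Some of these proteins act against or upon each other, and others are paralogs or belong to the same process. Ratios between pairs of both kinds were formed within each library, as log2 ratios of CPM. A ratio does not depend on the scaling of the library, and its difference between groups does not depend on gene length. The ratio of *Dnm1l* to *Opa1*, a fission to a fusion gene, was 0.67, 0.58 and 0.45 in saline libraries and 1.58, 1.24 and 1.29 in microbead libraries. It was higher in every microbead library than in any saline library, with a mean difference of 0.81 on the log2 scale, so that the counts of *Dnm1l* were 1.48 times those of *Opa1* in saline and 2.59 times in microbead retina. With any 1 library left out the difference was 0.70 to 0.87. The groups overlapped for the other 4 ratios, whose mean differences were -0.49 for *Opa1* to *Oma1*, -0.27 for *Mfn2* to *Mfn1*, 0.14 for *Mff* to *Fis1* and 0.01 for *Bnip3l* to *Bnip3*. The pair of *Dnm1l* and *Opa1* joins the only positive and the most negative estimate among the genes described here, and *Opa1* alone separated the groups. How often ratios of other gene pairs separate the groups was not counted. These ratios are descriptions without a test.

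**Figure D4:**
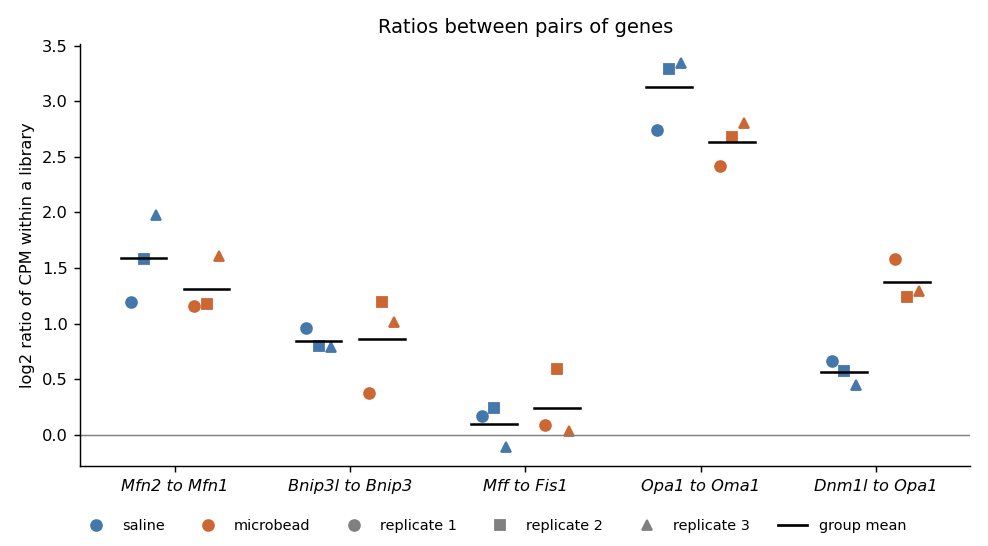
Log2 ratio of CPM within a library (vertical axis) for 5 pairs of genes in 3 saline (blue) and 3 microbead (orange) libraries, with symbols for replicate numbers and lines for group means. The ratio of *Dnm1l* to *Opa1* lies between 0.45 and 0.67 in saline and between 1.24 and 1.58 in microbead libraries, and the groups overlap for the other pairs.

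Levels were compared between genes after division by the length of all annotated exons of each gene, merged over its transcripts. For *Mff*, with 16 annotated transcripts, this length was 9757 bases. It may differ from the length of the transcripts present in the retina, which was not measured, and the order of the genes depends on it. In saline retina *Pink1* was highest, at 146.8 ± 22.2 CPM per kilobase (SD, n = 3), followed by *Fis1* at 62.9 ± 10.7. The next genes, *Mfn2* (40.6 ± 4.29), *Bnip3l* (38.7 ± 6.64) and *Bnip3* (36.9 ± 8.13), each differed from their neighbor by less than the SD of either. *Dnm1l* (30.2 ± 3.07) was below these genes and had rank 6 in each saline library. *Opa1* (13.6 ± 2.38), *Mff* (11.8 ± 0.593) and *Mfn1* (11.5 ± 1.90) were likewise close to each other, and *Oma1* was lowest at 5.69 ± 0.505 CPM per kilobase. *Pink1*, *Fis1* and *Oma1* held the first, second and last place in all 6 libraries. In microbead retina *Dnm1l*, at 33.9 ± 2.39 CPM per kilobase, had a mean above those of *Mfn2* (27.4 ± 4.07), *Bnip3l* (26.6 ± 2.44) and *Bnip3* (25.7 ± 8.65), and *Opa1* (8.70 ± 1.17) a mean below those of *Mff* (11.1 ± 1.89) and *Mfn1* (9.29 ± 0.688).

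The saline libraries, but not the microbead libraries, had much the same order for most of the genes. Among saline libraries, replicate 3 had the highest level for 8 of the 10 genes and replicate 1 the lowest for 8, whereas over all tested genes these libraries were highest in 39.8% and lowest in 32.8% of cases. The exceptions were *Mfn1* and *Oma1*. Among microbead libraries, replicate 1 was highest for 3 genes, replicate 2 for 5 and replicate 3 for 2, and replicate 3 was lowest for 6 genes, compared to 29.6% of all tested genes. The median coefficient of variation of the 10 genes was 15.8% in saline and 13.2% in microbead libraries, compared to 13.4 and 16.4% over the 9635 tested genes within the same range of mean CPM.

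Markers of retinal cell types were also measured in these libraries, since a whole retina holds all of its cell types, and fewer cells of a type and less RNA per cell cannot be told apart. Rod markers were abundant throughout, with summed levels of 67040 to 88620 CPM in saline and 61860 to 75300 CPM in microbead retina, so that the defining markers of the labelled tissue were present. The 11 RGC markers summed to 380.3 CPM in saline replicate 1 and to between 944.1 and 1406 CPM in the other 5 libraries. Saline replicate 3 held 274.0 CPM of 4 lens markers, compared to 20.3 CPM in saline replicate 1 and at most 1.69 CPM elsewhere. Pigment epithelium markers summed to 8.02, 35.8 and 161.5 CPM in saline replicates 1, 2 and 3 and to 77.2 to 90.5 CPM in microbead libraries. This rise from saline replicate 1 to 3 is the order that most of the 10 genes had. Sums of RGC, amacrine, bipolar, horizontal cell, endothelial and pericyte markers rose in the same order over the saline replicates. Those of rod, cone, Müller glia, astrocyte, microglia and lens markers did not. Microglia markers summed to 172.3 CPM in saline replicate 1 and to 42.2 to 93.5 CPM in the other libraries. The 9 Müller glia markers summed to 6753 to 10250 CPM in saline and 5291 to 6618 CPM in microbead libraries, with 3 genes called lower, and the sums of horizontal cell, astrocyte and endothelial markers were likewise lower in every microbead library, with 1 of 4, 0 of 4 and 3 of 7 genes called lower. No marker of any list in the table was at 0 in all libraries. The part of these differences in the levels of the 10 genes was not tested. Without saline replicate 3, the log2 fold changes of *Opa1*, *Mfn2*, *Pink1* and *Bnip3l* were -0.52, -0.49, -0.37 and -0.40, and without saline replicate 1 they were -0.77, -0.64, -0.59 and -0.63.

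The other genes of these pathways were given by 10 lists with 162 genes, of which 158 were tested. Of these, 20 were lower and 3 higher in microbead retina, 14.6% of those tested, and their median log2 fold change was -0.15. Of all tested genes 12.8% were called, 6.31% lower and 6.46% higher, and these shares also stand beside the counts of each list below. In single lists, 7.69 to 23.1% of the tested genes were called in either direction. At an unadjusted p-value under 0.05 there were 58 of the 158, beside the 31.4% of all tested genes given above. DESeq2 called 26 of these genes lower and 8 higher, beside 20.2% of all genes, 9.60% lower. These counts rested on all libraries together: without microbead replicate 3, 0 of these genes passed, and without saline replicate 2, 3 were lower and 0 higher. Calls over all genes fell in these fits as well. From 1143 higher and 1118 lower they went to 26 and 20 without microbead replicate 3, of 19313 tested genes. Without saline replicate 2 they were 142 and 151, of 17424 tested genes. Among the 158 genes, leaving out microbead replicate 1 left 7 lower and leaving out microbead replicate 2 left 6. In either case, as without saline replicate 3, 0 were higher. Of the 23 calls, 19 held without saline replicate 1, 14 without saline replicate 3, 6 without microbead replicate 1 or replicate 2, 3 without saline replicate 2 (*Pgk1*, *Gabarapl2* and *Vcp*) and 0 without microbead replicate 3, where their adjusted p-values were 0.0602 to 0.163. The same 3 genes passed in 5 of the 6 fits with 1 library left out.

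In the list of other fission genes, 2 of 15 fell and 0 rose. *Mief1*, which encodes another DRP1 receptor, had 34.8 to 47.2 CPM in saline and 22.4 to 29.4 CPM in microbead libraries (-0.74 on the log2 scale, SE 0.19, edgeR adjusted p = 0.0388), and *Mul1*, a ligase of the outer membrane, changed by -0.62 (adjusted p = 0.0475). The related receptor gene *Mief2* had a log2 fold change of -0.27 (adjusted p = 0.404). Of 20 other fusion and inner membrane shape genes, *Samm50*, which joins the outer membrane to the cristae junctions, fell (-0.68, adjusted p = 0.0296) and *Mtx3*, a metaxin of the same assembly, rose (0.76, adjusted p = 0.0482). Each of these 4 calls was past the threshold in 1 of the 6 fits that left out a library, that without saline replicate 3 for *Mief1* and *Mul1* and that without saline replicate 1 for *Samm50* and *Mtx3*. With all libraries kept, *Mul1* missed the threshold with RLE scaling (0.0526), upper-quartile scaling (0.0603), limma-voom (0.0524) and without genes of the mitochondrial genome (0.0525). *Mief1* (0.0544) and *Samm50* (0.0501) missed it with the offset for GC content and length, and *Mtx3* (0.0506) with thinned counts.

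Of 13 mitochondrial proteases, 3 fell and 0 rose. *Parl*, the rhomboid protease that cleaves PINK1 in healthy mitochondria, had 38.3 to 43.1 CPM in saline and 21.3 to 25.5 CPM in microbead libraries, and its log2 fold change was -0.85 (SE 0.17, edgeR adjusted p = 0.0181). It passed in 3 of the 6 fits with a library left out and reached 0.0875 without microbead replicate 3. *Afg3l1*, a subunit of the matrix AAA protease, changed by -0.71 (adjusted p = 0.0371), with adjusted p-values of 0.0516 to 0.119 when any library was left out. *Yme1l1*, which cleaves OPA1 beside OMA1, had a log2 fold change of 0.01 (95% interval -0.41 to 0.43, adjusted p = 0.984), a value whose sign changed under several alternatives.

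In the list of PINK1 pathway genes, 3 of 20 tested genes fell and 0 rose. *Vcp*, the ATPase that extracts ubiquitinated mitofusins, had 283.7 to 370.4 CPM in saline and 130.5 to 161.6 CPM in microbead libraries (-1.17 on the log2 scale, SE 0.18, edgeR adjusted p = 0.0119). *Vdac1*, a voltage-dependent channel of the outer membrane, changed by -0.86 (adjusted p = 0.0233), with adjusted p-values of 0.0183 to 0.106 over the fits without 1 library. *Optn*, the autophagy receptor whose human gene is mutated in familial glaucoma, had 141.7 to 154.2 CPM in saline and 168.6 to 195.2 CPM in microbead libraries. The groups of *Optn* did not overlap, but its change did not pass the test (log2 fold change 0.30, edgeR adjusted p = 0.224).

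Of 9 other mitophagy receptors and their regulators, 2 fell and 0 rose. One was *Pptc7*, a phosphatase known to limit the amount of BNIP3 and BNIP3L protein, with 35.8 to 48.1 CPM in saline and 13.9 to 25.1 CPM in microbead libraries (-1.15 on the log2 scale, SE 0.24, edgeR adjusted p = 0.0209), which passed in 3 of the 6 fits with a library left out. The other was *Fundc2* (-0.81, adjusted p = 0.0279), which held in 1 of the 6 fits with a library left out. In the autophagosome core, 3 of 25 genes fell and 0 rose, among them the LC3 family members *Gabarapl2* (-1.46, SE 0.22, adjusted p = 0.0110) and *Map1lc3a* (-0.93, adjusted p = 0.0249). *Gabarapl2* had 99.8 to 141.3 CPM in saline and 34.4 to 53.4 CPM in microbead libraries.

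Mitochondrial transport adaptors had 2 of 12 genes lower and 0 higher. These were *Mgarp* (-1.07, edgeR adjusted p = 0.0149), which is also known as a hypoxia-induced gene, and the kinesin heavy chain gene *Kif5b* (-0.95, adjusted p = 0.0267), each past the threshold in 3 of the 6 fits with a library left out. Of 20 tested hypoxia response genes, which include many targets regulated together with *Bnip3*, 3 fell and 0 rose. *Pgk1*, a glycolytic enzyme, had 472.0 to 605.0 CPM in saline and 139.8 to 219.3 CPM in microbead libraries (-1.62 on the log2 scale, SE 0.22, adjusted p = 0.00794), and *Pdk1*, which restrains pyruvate oxidation, changed by -0.95 (adjusted p = 0.0178). The median log2 fold change of this list was -0.32.

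The regulators of mitochondrial biogenesis were the only list with a positive median log2 fold change, 0.34, and there 2 of 14 genes rose and 1 fell. *Perm1*, a muscle and mitochondrial regulator downstream of PGC-1, had 4.71 to 13.5 CPM in saline and 17.5 to 26.6 CPM in microbead libraries (1.29 on the log2 scale, SE 0.35, edgeR adjusted p = 0.0440), and it passed in 1 of the 6 fits with a library left out and missed the threshold with thinned counts (0.0550). *Ppara*, a nuclear receptor of fatty acid oxidation, had a log2 fold change of -0.995 that did not pass (adjusted p = 0.1598). Among 13 tested genes of mitochondrial content, 1 fell and 0 rose, and the median log2 fold change was -0.38. The one called gene was *Vdac1*, given above, and *Cox4i1*, a subunit of complex IV, had a log2 fold change of -0.62 (adjusted p = 0.0809).

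**Figure D5:**
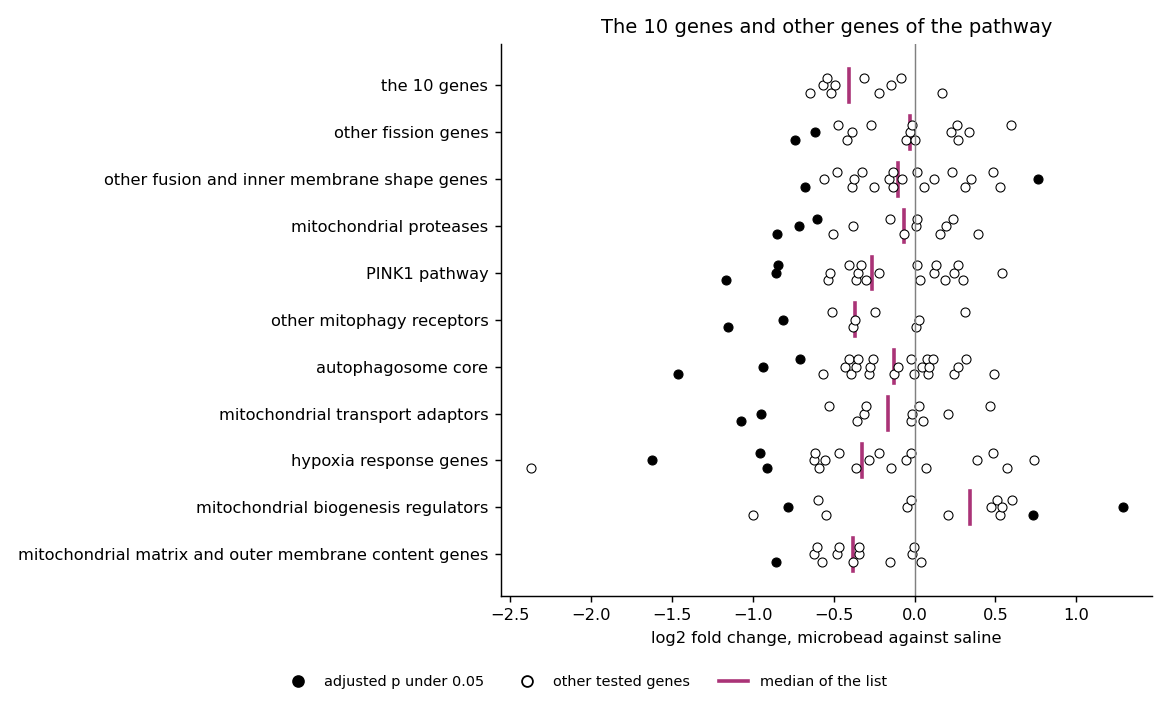
Log2 fold change, microbead against saline (horizontal axis), of the 10 genes and of every tested gene in 10 lists of related genes, where each circle is a gene, filled circles have an adjusted p-value under 0.05 and bars mark list medians. None of the 10 genes is filled, their median is -0.40, and the list medians run from -0.38 for mitochondrial content genes to 0.34 for biogenesis regulators.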

How the data were processed

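Poly(A)-selected RNA of whole retina was sequenced from libraries made with a stranded kit, and 3 saline and 3 microbead libraries were analysed here, fewer than the retinas per group that the paper gives. The authors aligned the paired reads to GRCm38.p5 with STAR 2.5.3a and the GENCODE vM12 annotation and counted them on genes with featureCounts 1.15.2, per the paper's methods and the submitters' processing notes, and deposited 1 raw count per gene and library. The handling of strand and of reads with several positions in counting is not given in the sources used here. The deposited table also holds the authors' own DESeq2 1.14 comparison (mean, fold changes, p-values and a call column), which was not used. All 6 columns of per-sample counts were used, and 24 symbols altered by spreadsheet software were restored from their gene IDs.

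In R 4.3.3 with edgeR 4.0.16, low counts were removed by filterByExpr (count of 10, total of 15), library sizes were TMM-scaled, and the comparison of the groups used the two-sided quasi-likelihood test. P-values were adjusted by the Benjamini-Hochberg method across the whole table of tested genes, with 0.05 as the threshold. CPM are counts per 1000000 of the scaled library size. A 95% interval is the log2 fold change ± its standard error times the t quantile. No test over a list of genes was made. Alternatives were RLE and upper-quartile scaling, no genes of the mitochondrial genome, omission of the filter, a minimum of 10 counts in each library, limma-voom (limma 3.58.1), DESeq2 1.42.0, the replicate number as a block, offsets for GC content and length from splines of 5 degrees of freedom (also combined with the block), counts thinned to the smallest total, an additional 2-fold limit as in the study's methods, and each library left out. The scripts were tested on simulated counts.

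Positions, exon lengths and shared stretches were taken from GENCODE vM21 on GRCm38, which covers 99.6% of the tested genes, and promoter sequences from RefSeq (GRCm38.p6). The 10 genes and the lists were chosen with earlier results of these data known. Of each list, the 2 genes with the largest absolute log2 fold change and a mean of at least 1 CPM are named, together with *Optn*, *Yme1l1*, *Mief1* and *Mief2*, whose roles pair with one of the 10 genes; a further gene under this rule is not reported here. *Calcoco2* had no row to match. *Marchf5* and *Uqcrc1* had at most 1 count and *Car9* at most 8 counts in any library, and these 3 were not tested. At the smallest library total, 3 counts correspond to 0.221 CPM, for counting error only. No 2 libraries of a group were alike within sampling noise (chi-square of 20.1 or more per degree of freedom), and no library was left out of the reported values.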

Additional observations from a re-analysis of the deposited data

How the results depend on the processing

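None of the 10 genes was past the threshold with a higher level in microbead retina under any alternative. The number past it with a lower level, 0 as reported, was 2 without the filter (*Opa1* and *Mfn2*), 1 with at least 10 counts in every library (*Opa1*), 3 with DESeq2 (*Opa1*, *Mfn2* and *Bnip3l*), 3 with the offset for GC content and length (*Mfn2*, *Bnip3l* and *Pink1*), and 0 to 1 with a library left out. Of 180 values of the 10 genes under the alternatives, 167 kept their direction and their side of the threshold, 10 kept the direction and passed it, and 3 changed sign, all for *Mff* (0.0255 with the offset, 0.0095 with the offset and the replicate block, and 0.0313 without microbead replicate 3, in a range of -0.208 to 0.0313 with a library left out). The values under the 2-fold limit are those of the reported fit, so they were bound to be among the 167. Without the filter the median log2 fold change was -0.23 over all genes and -0.45 over the 10. The differences of log2 ratios with a library left out were 0.70 to 0.87 for *Dnm1l* to *Opa1*, -0.68 to -0.38 for *Opa1* to *Oma1*, -0.46 to -0.08 for *Mfn2* to *Mfn1*, -0.04 to 0.24 for *Mff* to *Fis1* and -0.15 to 0.25 for *Bnip3l* to *Bnip3*.

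Over all genes, 1143 were higher and 1118 lower. Higher and lower counts were 1883 and 1699 with DESeq2, 480 and 425 with the replicate block, 704 and 520 with the offset and the replicate block, and 754 and 494 with the 2-fold limit. Without the filter they were 1511 and 2209, and with the offset alone 1392 and 1364. With a library left out they were 26 to 1356 and 20 to 1265. Among the other genes of the pathway, 3 were higher and 20 lower. These counts were 8 and 26 with DESeq2, 0 and 21 with thinned counts, 2 and 30 without the filter, 4 and 25 with the offset, 0 and 10 with the replicate block, 0 and 11 with the offset and the block, 1 and 5 with the 2-fold limit, and 0 to 4 and 0 to 16 with a library left out. *Yme1l1* changed sign to -0.0444 without the filter, -0.0125 with limma-voom and -0.0142 with the replicate block, and ranged from -0.184 to 0.125 with a library left out. Over all genes, the fit without saline replicate 1 had the most calls, 1356 higher and 1265 lower. The fit without microbead replicate 3 had the fewest, 26 higher and 20 lower. Why calls were lost or gained with a library left out was not tested.

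Libraries with the same replicate number did not deviate together (correlations of -0.04, 0.14 and 0.01), and not every library correlated best with its own number, so the number was not taken as a pairing. With the replicate block *Mief1*, *Mul1*, *Samm50*, *Mtx3*, *Afg3l1*, *Vdac1*, *Fundc2* and *Perm1* were no longer past the threshold (0.0558 to 0.0931). There the adjusted p-value of *Opa1* was 0.0752 and that of *Mfn2* 0.0754 (edgeR). The smaller depth of the microbead libraries limits *Oma1* most, with a counting error of 8.28% at its smallest count.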
